A study of Mus musculus with 11 samples.

Results

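Lin28a, Lin28b, Sall4, Mycn, Hmga2, Igf2bp1, Igf2bp2, Igf2bp3, Trim71 and Prtg are 10 genes of early embryonic growth whose transcripts were followed here through the development of the mouse mandibular arch, the facial prominence that forms the lower jaw and part of the tongue. Every probe set (a group of short array probes read as 1 value) whose single gene symbol was one of these 10 was taken, which gave 27 of the 45101 probe sets on the array. Igf2bp3 had 6 of them, Hmga2 and Igf2bp1 had 4 each, Mycn and Prtg had 3 each, Lin28a, Sall4 and Trim71 had 2 each, and Lin28b had 1. Igf2bp2 had no probe set of its own name and has no value here.

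RNA of ICR mouse embryos, an outbred stock with no engineered allele or treatment named in the labels, was measured on 11 Affymetrix arrays in 6 groups. The stated aim of the series was to compare the medial piece of the arch, cut at its distal end, with the lateral piece, which held what remained. Medial and lateral tissue had 1 array each at embryonic day 9.7 (E9.7) and 3 arrays each at E10.5, and medial tissue had 2 arrays at E11.5 and 1 at E14.5. For that last array the labels name tongue and its anterior portion, so stage and dissection differ together there and cannot be told apart. Each time point drew on tissue of 40 embryos combined, and nothing in the labels says that replicates came from separate pools, so p-values measure only the spread between arrays, which may be technical.

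Lin28a and Lin28b are RNA-binding proteins that block the maturation of let-7, a family of small RNAs that accumulates as embryonic tissues mature. Mature let-7 in turn represses messages that carry sites for its seed, among them those of Lin28 itself, the chromatin protein Hmga2, the RNA-binding proteins Igf2bp1 to Igf2bp3, the ubiquitin ligase Trim71 and the growth regulator Mycn. Sall4 is a zinc-finger transcription factor of pluripotent and early progenitor cells, and Prtg (protogenin) is a cell-surface immunoglobulin superfamily protein of the early neural tube, somites and cranial neural crest.

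The let-7 sequences are shown because the seed is what the family shares and what its targets are read by. Mature let-7 levels were not analysed here. The capitals mark the seed, bases 2 to 8 from the 5′ end, in 4 mouse family members from RefSeq (GRCm38.p6), and 11 mature miRNAs of the reference table carry this seed. They lie at chr13:48538239-48538260 on the minus strand (let-7a, from Mirlet7a-1), chr15:85707325-85707346 on the plus strand (let-7b), chr9:106178846-106178867 on the plus strand (let-7g) and chr10:122985698-122985719 on the minus strand (let-7i). In the let-7g hairpin, at chr9:106178840-106178927 on the plus strand, the capitals mark GGAG, the short motif in the loop region that Lin28 proteins are known to bind.
let-7a: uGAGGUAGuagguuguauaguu
let-7b: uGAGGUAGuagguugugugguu
let-7g: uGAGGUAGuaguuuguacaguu
let-7i: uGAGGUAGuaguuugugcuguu
let-7g hairpin: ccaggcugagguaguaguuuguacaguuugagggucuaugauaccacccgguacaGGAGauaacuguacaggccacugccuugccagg

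The promoters of Lin28a, Trim71 and Prtg are shown because the arrays recorded lower signal for these 3 genes at each later stage of medial tissue. The brightest probe sets of Mycn and Igf2bp3 were also lower at each later medial stage, and their windows are counted below but not printed. Each window is 300 bases, 250 before and 50 after the annotated start, read along the gene's strand from RefSeq (GRCm38.p6). Capitals mark the GC box (GGGCGG) and the CCAAT box (CCAAT) on either strand, so that CCGCCC and ATTGG are matches on the opposite strand. The E-box CACGTG and TATAAA were also searched on both strands. The windows are chr4:134018767-134019066 (minus strand, Lin28a), chr9:114564320-114564619 (minus strand, Trim71) and chr9:72807024-72807323 (plus strand, Prtg).
Lin28a promoter: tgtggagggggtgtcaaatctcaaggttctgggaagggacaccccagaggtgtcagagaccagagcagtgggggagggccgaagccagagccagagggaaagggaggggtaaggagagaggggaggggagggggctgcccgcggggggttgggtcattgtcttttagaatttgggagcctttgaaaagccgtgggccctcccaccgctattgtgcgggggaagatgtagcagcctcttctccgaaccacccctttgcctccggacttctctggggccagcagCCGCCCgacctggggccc
Trim71 promoter: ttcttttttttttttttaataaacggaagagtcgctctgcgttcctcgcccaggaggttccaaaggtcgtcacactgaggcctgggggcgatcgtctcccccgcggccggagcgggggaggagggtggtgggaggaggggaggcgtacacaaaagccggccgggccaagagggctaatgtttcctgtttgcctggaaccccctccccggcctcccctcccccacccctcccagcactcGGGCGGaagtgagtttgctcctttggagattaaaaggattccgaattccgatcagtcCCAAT
Prtg promoter: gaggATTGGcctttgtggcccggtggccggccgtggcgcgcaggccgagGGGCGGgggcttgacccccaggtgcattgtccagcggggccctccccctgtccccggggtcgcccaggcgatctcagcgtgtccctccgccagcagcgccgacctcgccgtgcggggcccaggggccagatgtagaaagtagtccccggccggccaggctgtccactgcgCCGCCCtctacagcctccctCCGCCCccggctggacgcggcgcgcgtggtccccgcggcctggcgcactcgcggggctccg

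Of the 10 genes, 8 had a window in the table, and Sall4 and Igf2bp1 had none. The GC box was in 6 of the 8 windows (3 copies for Prtg, 2 each for Mycn and Igf2bp2, 1 each for Lin28a, Hmga2 and Trim71), against 35.7% of 32851 promoters. CCAAT was in 4 of the 8 (Lin28b, Igf2bp3, Trim71 and Prtg), against 37.4%. CACGTG was in 2, with 2 copies for Igf2bp3 and 1 for Lin28b, against 7.2%, and TATAAA was in none of the 8, against 13.6%. No motif searched was in all 3 windows printed except the GC box. The GC content of the windows ran from 39.0% (Lin28b) to 76.7% (Prtg and Igf2bp2), and all but that of Lin28b lay above the median of all promoters, 52.7%. The GC box holds only G and C, and its share was not compared at equal GC content. These matches describe letters, not bound sites.

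All values below are log2 signals after quantile normalization across the 11 arrays, and a difference of 1 is a 2-fold change. A probe set was tested with limma where at least 2 of 8 arrays reached the 50th percentile of all values (4.86), called here the filter level, which is not a detection limit. A probe set was called at a Benjamini-Hochberg adjusted p under 0.05 over all probe sets tested. Different probe sets differ in how brightly they bind, so levels are compared only within a probe set and genes are compared by their differences. The deposited median log2 signal was between 5.20 and 5.73 on 9 arrays, but only 2.37 on replicate 1 of medial E10.5 and 2.47 on replicate 1 of medial E11.5, and results that rest on these arrays are given without them too. Spiked-in control probe sets placed the arrays in 4 clusters (not a labelled batch), and cluster 1 took in the E9.7 pair, replicate 2 of medial E11.5 and, from E10.5, replicate 2 of the medial and replicate 1 of the lateral tissue. Cluster 2 held the arrays of low deposited signal, and cluster 3 held the remaining E10.5 arrays. The arch mesenchyme markers Prrx1, Prrx2, Twist1, Msx1 and Pdgfra reached the filter level in every group, and the neural tube markers Pax6, Sox1, Olig2 and Nkx2-2 and the germ cell markers Ddx4, Dazl and Dppa3 reached it in none.

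**Figure D1:**
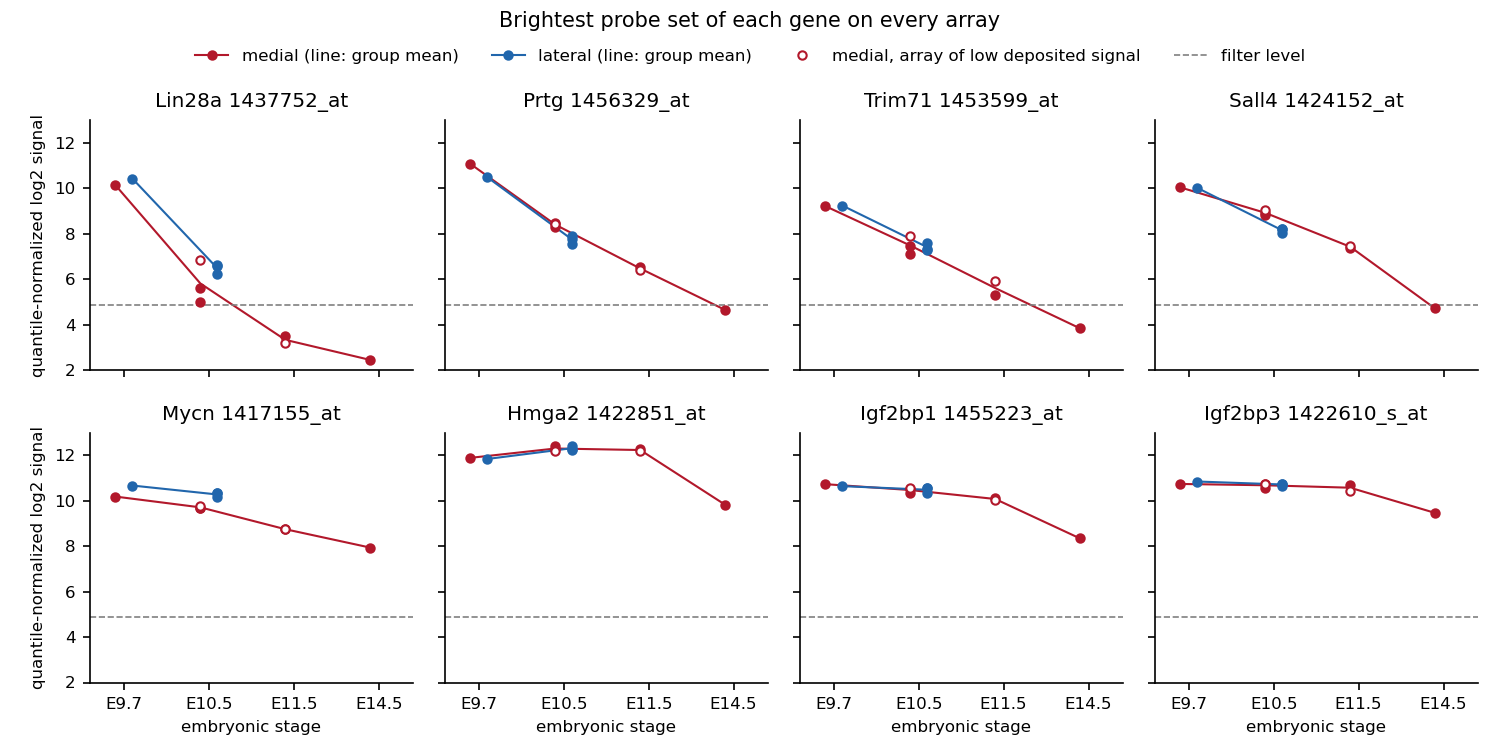
Quantile-normalized log2 signal (y axis) of the brightest probe set of each gene on every array at E9.7, E10.5, E11.5 and E14.5 (x axis, stages evenly spaced). Red points are medial and blue points lateral arrays, lines join group means, open points are the arrays of low deposited signal and the dashed line is the filter level of 4.86. Group means of every gene shown except Hmga2 are lower at each later medial stage. From E9.7 to E11.5 the drop is largest for Lin28a, Prtg, Trim71 and Sall4. Over that span medial Mycn goes from 10.18 to 8.75, Igf2bp1 from 10.73 to 10.07 and Igf2bp3 from 10.74 to 10.57. Hmga2, Igf2bp1 and Igf2bp3 are lower on the E14.5 array.

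Between E9.7 and E10.5, over both regions, Lin28a, Prtg, Trim71 and Sall4 fell on every probe set they have, by 17.6-fold at most for Lin28a. Of the 26 probe sets of these genes that were tested, 11 fell (6 genes) and 2 rose (both of Hmga2), where 2.76% of all 24113 tested probe sets fell and 2.54% rose. A fall of at least 2-fold was seen for 9 of the 26, against 0.489% of all. Among the 25 probe sets that reached the filter level at both stages, 10 fell and 2 rose. The E9.7 and E10.5 arrays did not overlap for 16 of the 26, against 24.6% of all. The median difference was -0.43 over the 26 and 0.00 over all tested. With each array centred on its median, calls over all probe sets were 209 higher and 980 lower, against 612 and 665 here. The 13 calls became 8 without medial E9.7, medial E10.5 replicate 3 or any 1 of the lateral E10.5 arrays, and 7 without lateral E9.7. The 6 arrays at E10.5 were set against the 2 at E9.7 with region as a term in the fit. In such bulk tissue, fewer cells of a type and less RNA per cell cannot be told apart, here and in every comparison below.

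Lin28a had the lowest difference of the 24113 probe sets tested. Its brighter probe set (1437752_at) read 10.13 in medial and 10.42 in lateral tissue at E9.7. At E10.5 it read 6.82, 5.59 and 5.01 on the medial arrays and 6.60, 6.22 and 6.60 on the lateral arrays. Every E10.5 array therefore lay more than 3 log2 units under both E9.7 arrays. The difference was -4.14 ± 0.40 (log2 ± SE, n = 6 and 2, limma adjusted p = 0.00241), a 17.6-fold fall.

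The other Lin28a probe set (1421749_at) ranked next, with -3.27 ± 0.25 (n = 6 and 2, limma adjusted p = 0.00145). It read 7.91 and 8.24 at E9.7, 5.39, 4.59 and 4.29 on the medial E10.5 arrays and 4.93, 4.83 and 4.76 on the lateral ones. Again no E10.5 array came near the E9.7 pair. Its E10.5 mean of 4.80 lies just under the filter level, so the size of that difference rests on dim signal. Both probe sets stayed called when each of the 8 arrays was left out in turn, and within cluster 1 alone their differences were -4.18 and -3.31. Without the normalization step, on the values as deposited, 1437752_at was the only probe set of all 27548 then tested to be called (-4.71, limma adjusted p = 0.0454).

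Prtg followed with ranks 4, 5 and 6 from the lowest. Probe set 1456329_at read 11.07 (medial) and 10.48 (lateral) at E9.7. At E10.5 it read 8.43, 8.27 and 8.48 in medial and 7.90, 7.55 and 7.76 in lateral tissue, a difference of -2.71 ± 0.12 (n = 6 and 2, limma adjusted p = 0.000114). The spread within a stage and region was small against this gap, and the stages did not overlap. The other Prtg probe sets gave -2.52 ± 0.13 (1438410_at, adjusted p = 0.000215) and -2.93 ± 0.17 (1438333_at, adjusted p = 0.000375). The last of these passed the filter only through the E9.7 arrays, with an E10.5 mean of 4.16, so it had to differ and its value is a description. The calls on 1456329_at and 1438410_at held without any 1 of the 8 arrays.

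Trim71, a let-7 target and an E3 ligase of stem and progenitor cells, fell by about the same amount on both probe sets. Probe set 1453599_at read 9.21 and 9.24 at E9.7 against 7.89, 7.11 and 7.44 (medial) and 7.26, 7.34 and 7.61 (lateral) at E10.5. The groups did not overlap, and the difference was -1.78 ± 0.19 (n = 6 and 2, limma adjusted p = 0.00372). It was not called without the medial E9.7 array (-1.83, adjusted p = 0.0552) or without the lateral E9.7 array (-1.73, adjusted p = 0.0685). Probe set 1456673_at read 8.41 and 8.39 at E9.7 and between 6.46 and 7.15 at E10.5, with a difference of -1.72 ± 0.17 (adjusted p = 0.00245), called without any 1 array.

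Sall4 fell on both probe sets, and its values differed more between regions than those of Trim71. The brighter probe set (1424152_at) read 10.03 in medial and 10.01 in lateral tissue at E9.7, then 9.04, 8.90 and 8.81 in medial and 8.02, 8.20 and 8.22 in lateral tissue at E10.5. No E10.5 array reached either E9.7 array. The difference was -1.49 ± 0.17 (n = 6 and 2, limma adjusted p = 0.0042) and was called without any 1 array. The dimmer probe set (1424153_s_at) gave -1.22 ± 0.27 (adjusted p = 0.0402), a call that was lost in 5 of 8 fits with 1 array left out, with -0.57 (adjusted p = 0.451) without the lateral E9.7 array and between -1.22 and -1.14 without medial E10.5 replicate 3 or without any 1 of the 3 lateral E10.5 arrays (adjusted p from 0.0738 to 0.0996). It was not called with the control-probe cluster as a term either (-1.15, adjusted p = 0.0554).

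For Mycn, Hmga2 and Igf2bp1 the differences were under 2-fold and the probe sets of 1 gene did not all move together. Mycn 1417155_at gave -0.43 ± 0.10 (n = 6 and 2, limma adjusted p = 0.0438), although its arrays overlapped between the stages, and 1425922_a_at gave -0.70 ± 0.17 (adjusted p = 0.0555). The third Mycn probe set, 1425923_at, gave 0.56 ± 0.25 (adjusted p = 0.214). Hmga2 rose on 1422851_at (0.44 ± 0.10, adjusted p = 0.0432) and 1450780_s_at (0.39 ± 0.09, adjusted p = 0.0478). After centring on array medians instead, these 2 differences became -0.02 and -0.05, and on values as deposited -0.24 and -0.27, so their direction depends on the scaling. The other Hmga2 probe sets gave 0.17 (1450781_at, 95% interval -0.39 to 0.73) and -0.44 (1446196_at, -0.96 to 0.09), and the first was called with the control-probe cluster as a term (0.54, limma adjusted p = 0.0215).

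Igf2bp1 fell on 1418761_at (-0.43 ± 0.10, limma adjusted p = 0.0469). Its 1449210_at gave -0.51 ± 0.12 (adjusted p = 0.0511), 1455223_at gave -0.21 ± 0.11 and 1459825_x_at gave 0.41 ± 0.19. The Mycn call, the 2 Hmga2 calls and the Igf2bp1 call were each lost in 7 of 8 fits with 1 array left out and held only without medial E10.5 replicate 1, an array of low deposited signal. The adjusted p of these 4 probe sets then ran up to 0.421, without the lateral E9.7 array. Of the 6 Igf2bp3 probe sets none was called, with differences from -0.33 to 0.32, and 2 of them had an unadjusted p under 0.05 (1433731_at and 1453957_a_at). The 95% interval of its brightest probe set, 1422610_s_at, ran from -0.32 to 0.13, so a 2-fold change lies outside it.

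**Figure D2:**
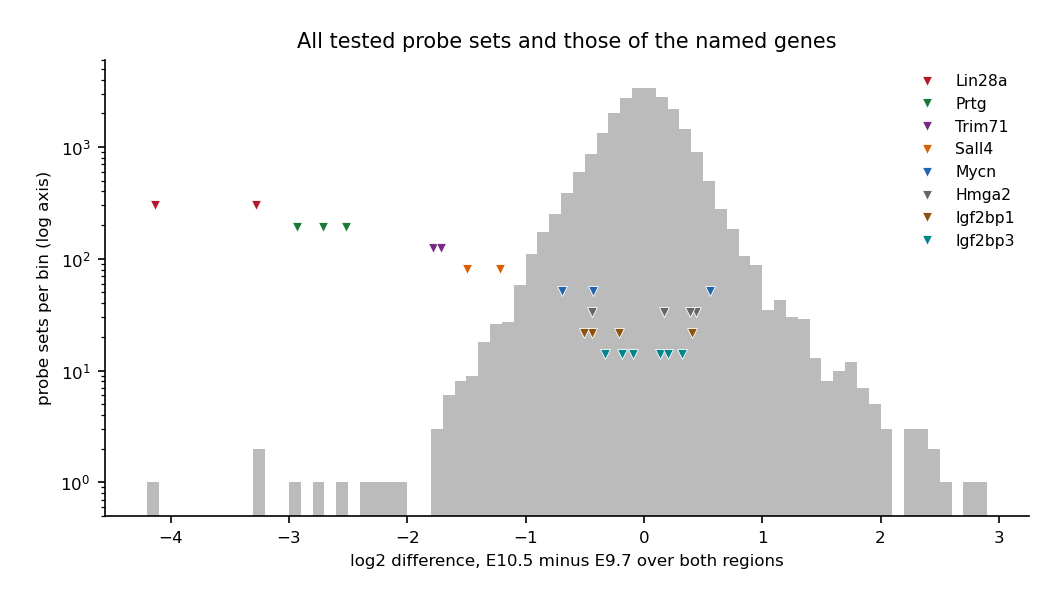
Number of probe sets per bin of 0.1 (y axis, log scale) by log2 difference between E10.5 and E9.7 over both regions (x axis) for all 24113 tested probe sets, with triangles at the differences of the probe sets of 8 named genes (their height has no meaning). The Lin28a triangles are at -4.14 and -3.27 and the Prtg triangles between -2.93 and -2.52, in the sparse left tail, while Igf2bp3 lies from -0.33 to 0.32.

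Cell composition values stand beside these falls. Of 7 tested cell cycle genes none was called between E9.7 and E10.5 with limma (none at an unadjusted p under 0.05), and the mean log2 signal of that list was 11.07 and 11.02 at E9.7 against 10.96 to 11.02 at E10.5. Arch mesenchyme markers had 1 of 5 higher and 1 lower, epithelial markers 3 of 6 lower and both tested macrophage markers higher. Muscle markers had 2 of 4 higher (median 0.75), neuronal markers 1 of 3 higher and endothelial markers 1 of 6 lower (median -0.38). The mean of the epithelial list was 8.42 (medial) and 7.57 (lateral) at E9.7 against 8.05 to 8.20 (medial) and 7.20 to 7.36 (lateral) at E10.5. The part of these cell types in the falls was not tested. Neural tube markers averaged between 3.15 and 3.47 on the 10 arrays from E9.7 to E11.5, under the filter level throughout.

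The falls were seen in each region taken alone, though with 1 array at E9.7 that could not be tested. A probe set was counted where the E9.7 array lay at least 2-fold beyond every E10.5 array of the same region. In medial tissue this held for 7 of 26 (both of Lin28a, both of Trim71 and all 3 of Prtg), against 0.296% of all probe sets counted. Of these, Lin28a 1421749_at (medial E10.5 mean 4.76) and Prtg 1438333_at (4.49) were counted only through the E9.7 array, where they are high. In lateral tissue the 2-fold rule held for 9 of 26, against 0.881%, and the additional ones were both probe sets of Sall4. Here Lin28a 1421749_at (lateral E10.5 mean 4.84), Sall4 1424153_s_at (4.69) and Prtg 1438333_at (3.83) were counted only through the E9.7 array. In both regions the values of such probe sets are descriptions. For Sall4 1424152_at the stage difference was -1.12 in medial and -1.87 in lateral tissue, and for 1424153_s_at it was -0.57 and -1.86. For Lin28a 1437752_at it was -4.32 and -3.95, for Prtg 1456329_at -2.67 and -2.75, and for Trim71 1453599_at -1.73 and -1.83.

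Whether the stage difference itself depended on region was fitted as the medial minus lateral difference at E10.5 less that at E9.7. With limma 0 of 24113 probe sets were called, where 410 had an unadjusted p under 0.05. Sall4 gave 0.75 ± 0.24 (unadjusted p = 0.0121) and 1.29 ± 0.46 (unadjusted p = 0.0210), each with an adjusted p of 0.999969. The unequal Sall4 falls thus did not pass over all probe sets tested.

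From E10.5 to E11.5, within medial tissue, Prtg, Sall4 and Trim71 fell again and Mycn fell by close to 2-fold. Lin28a also read lower, on signal that was under the filter level at E11.5. Of 25 probe sets tested, 7 fell (5 genes), against 1.62% of all 24339 probe sets tested, and 6 of these fell by at least 2-fold, against 0.879%. None rose (none at an unadjusted p under 0.05 in that direction), where 2.68% of all rose. Among the 22 that reached the filter level at both stages, 6 fell, and the call left out was that of Lin28a. With the control-probe cluster as a term in the fit 11 fell, among them both Lin28a probe sets, which reached the filter level at E10.5 only. The 3 E10.5 and 2 E11.5 arrays did not overlap for 12 of the 25, against 25.1% of all. The median difference was -0.39 over the 25 and -0.02 over all tested.

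Lin28a 1437752_at read 3.17 and 3.48 at E11.5, under the filter level, against 6.82, 5.59 and 5.01 at E10.5. The groups did not overlap, and the difference was -2.48 ± 0.44 (n = 2 and 3, limma adjusted p = 0.0141). Because the probe set passed the filter only through the stage where it is high, its call is no independent test, and the size rests on dim E11.5 signal. It was not called without medial E11.5 replicate 1 (-2.32, adjusted p = 0.110) or replicate 2 (-2.63, adjusted p = 0.0677), nor with only the compared groups in the fit (adjusted p = 0.0554). Probe set 1421749_at read 4.75 and 3.74 at E11.5 and overlapped the E10.5 arrays, with -0.51 ± 0.35 (95% interval -1.31 to 0.30, adjusted p = 0.619). With the cluster as a term it was called (-0.73, adjusted p = 0.00432). No E11.5 array of 1421749_at reached the filter level, so that call is no independent test either. Both groups of that probe set were near or under the filter level already at E10.5.

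Prtg 1456329_at read 6.39 and 6.55 at E11.5 against 8.43, 8.27 and 8.48 at E10.5. The groups lay far apart for their spread, with -1.93 ± 0.15 (n = 2 and 3, limma adjusted p = 0.000172). Prtg 1438410_at gave -1.59 ± 0.19 (adjusted p = 0.0018), and 1438333_at, which read 2.88 and 2.94 at E11.5, was not tested. Both Prtg calls held without any 1 array.

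Sall4 1424152_at read 7.46 and 7.38 at E11.5, under all 3 E10.5 arrays (9.04, 8.90 and 8.81), a difference of -1.49 ± 0.13 (n = 2 and 3, limma adjusted p = 0.000373). The dimmer Sall4 probe set gave -0.78 ± 0.26 (adjusted p = 0.167). It was called without medial E11.5 replicate 1, an array of low deposited signal (-1.21, adjusted p = 0.0373), and with the cluster as a term (-0.93, adjusted p = 0.00866).

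Trim71 1453599_at read 5.90 and 5.31 at E11.5 against 7.89, 7.11 and 7.44, a difference of -1.87 ± 0.26 (n = 2 and 3, limma adjusted p = 0.00354). Its 1456673_at read 4.77 and 5.66 against 7.15, 6.56 and 6.64, with -1.57 ± 0.27 (adjusted p = 0.0125). Neither probe set overlapped between the stages. The call on 1456673_at was lost without medial E11.5 replicate 1 (-1.13, adjusted p = 0.0677) and with only the compared groups in the fit (adjusted p = 0.0569).

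Mycn 1417155_at read 8.73 and 8.76 at E11.5 against values between 9.66 and 9.76 on the 3 E10.5 arrays. The replicates of a stage lay close together without overlap between stages, and the difference was -0.96 ± 0.12 (n = 2 and 3, limma adjusted p = 0.00248), called without any 1 array. The other Mycn probe sets gave -0.49 ± 0.21 (1425922_a_at, adjusted p = 0.331) and 0.18 ± 0.25 (1425923_at, adjusted p = 0.854). Mycn is a basic helix-loop-helix transcription factor that drives growth of progenitors.

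Hmga2, Igf2bp1 and Igf2bp3 had no probe set called between E10.5 and E11.5 without the cluster as a term. Their differences ran from -0.60 to 0.09, from -0.62 to -0.33 and from -0.32 to -0.04. The lowest of Igf2bp1, 1418761_at at -0.62 ± 0.18 (limma adjusted p = 0.118), was called without medial E11.5 replicate 2 (-0.93, adjusted p = 0.0230) and with the cluster as a term (-0.57, adjusted p = 0.0411). Igf2bp3 1450687_at was called with that term too (-0.55, adjusted p = 0.0173). For the brightest Hmga2 probe set the 95% interval was -0.36 to 0.22.

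Within the clusters that held both stages, the differences kept their direction for the probe sets called. In cluster 1 and cluster 2, Lin28a 1437752_at gave -2.11 and -3.65, Prtg 1456329_at -1.72 and -2.04, Sall4 1424152_at -1.51 and -1.57, and Mycn 1417155_at -0.94 and -1.03. Trim71 1456673_at gave -0.90 and -2.38. Each such value rests on 1 array against 1.

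The medial piece also changed in makeup over this step. All 8 muscle markers rose, by a median of 4.12, and their mean log2 signal was between 4.57 and 4.71 on the E10.5 arrays and 8.51 and 9.18 on the E11.5 arrays. Of 5 arch mesenchyme markers 3 fell (Msx1 -3.47, Prrx2 -1.81 and Prrx1 -2.13), with a list mean of 10.29 to 10.49 at E10.5 and 8.88 on both arrays at E11.5. Pdgfra went the other way without being called, with means of 10.52 and 11.20. At an unadjusted limma p under 0.05, 4 of these markers were lower and 1 was higher. Of 6 epithelial markers 4 fell, of 6 endothelial markers 2 fell, of 4 macrophage markers 2 rose, and of 7 cell cycle genes none was called (2 had an unadjusted p under 0.05, both lower). The part of these shifts in the falls of Lin28a, Prtg, Sall4, Trim71 and Mycn was not tested.

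**Figure D3:**
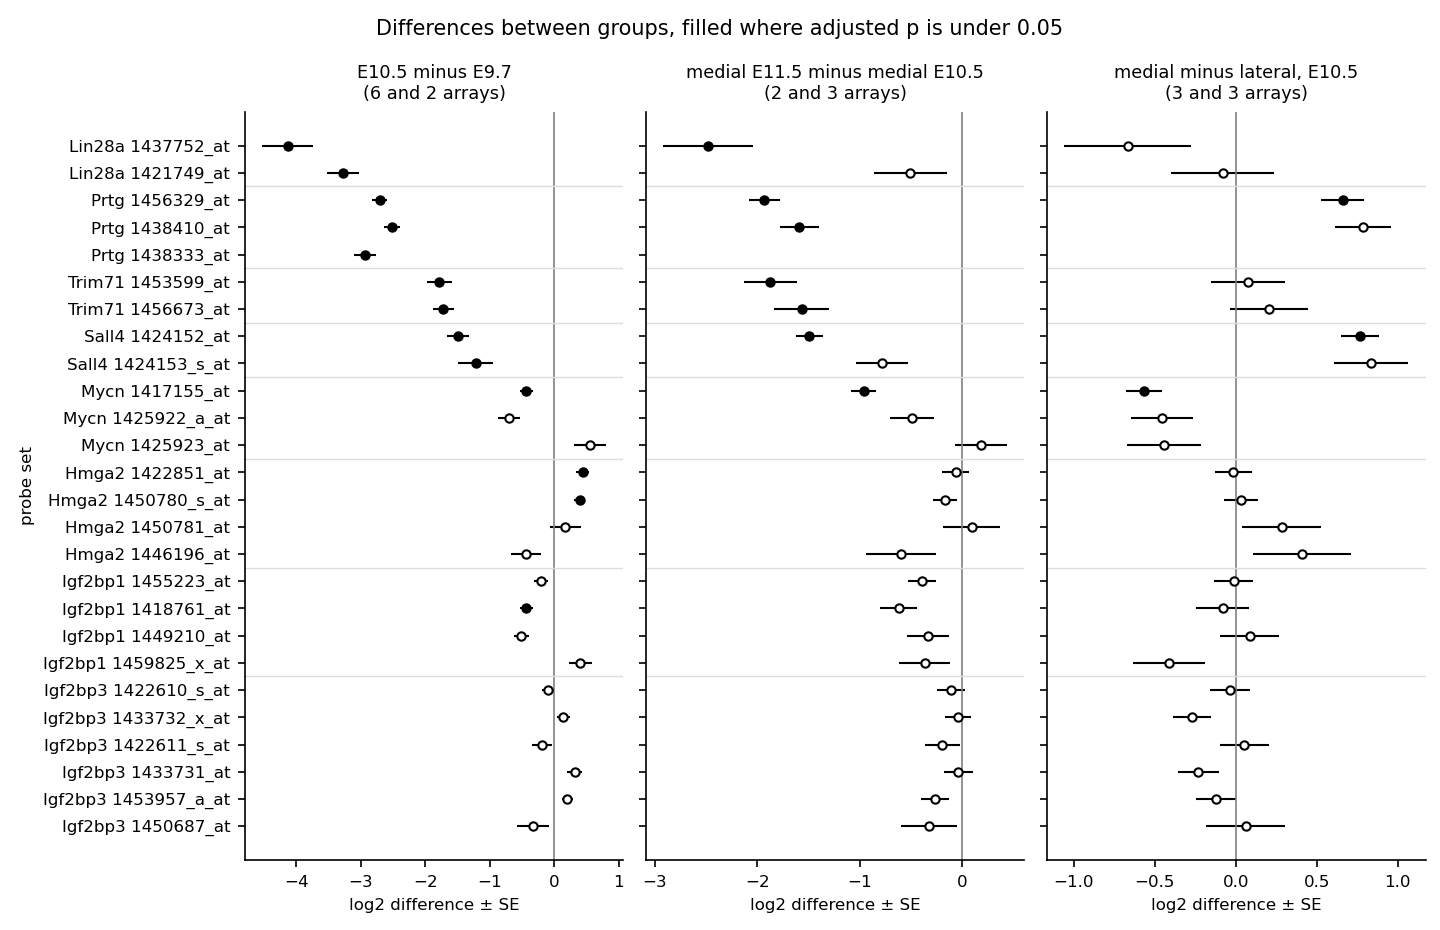
Log2 difference ± SE (x axis, with a different range in each panel) of each tested probe set (y axis) for E10.5 minus E9.7, medial E11.5 minus medial E10.5, and medial minus lateral at E10.5, with filled points where the limma adjusted p is under 0.05. Lin28a, Prtg, Trim71 and Sall4 lie left of 0 in both stage comparisons, and in the regional comparison 3 points are filled, at 0.66 (Prtg), 0.77 (Sall4) and -0.57 (Mycn).

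The regional comparison at E10.5, the aim of the series, gave small differences for these genes. Of 25 probe sets tested, 2 were higher in medial tissue (Sall4 and Prtg, 1 probe set each), against 1.89% of all 24339, and 1 was lower (Mycn), against 1.07%. For 8 of 25 every array of one region lay beyond every array of the other, against 21.9% of all, and the median difference was -0.01 over the 25 and over all tested alike. The 3 calls became 1 without medial E10.5 replicate 2 or 3 or lateral E10.5 replicate 2 or 3, and 2 without lateral E10.5 replicate 1. With the control-probe cluster as a term 6 were called. The comparison shares its medial arrays with the step to E11.5 and its 6 arrays with the step from E9.7.

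Sall4 1424152_at read 9.04, 8.90 and 8.81 in medial and 8.02, 8.20 and 8.22 in lateral tissue. All medial arrays were higher, by 0.77 ± 0.12 (n = 3 and 3, limma adjusted p = 0.00881), and the call held without any 1 array. The other Sall4 probe set read 5.79, 5.50 and 5.28 against 4.85, 4.70 and 4.50, again without overlap, with 0.84 ± 0.23 (adjusted p = 0.118). It was called with the cluster as a term (0.60, adjusted p = 0.0465), and only its medial arrays reached the filter level. Within clusters 1 and 3 the differences of the first were 0.88 and 0.60 and those of the second 0.65 and 0.68. At E9.7 the same subtraction gave 0.02 and -0.46.

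Prtg 1456329_at read 8.43, 8.27 and 8.48 in medial and 7.90, 7.55 and 7.76 in lateral tissue, higher in medial by 0.66 ± 0.13 (n = 3 and 3, limma adjusted p = 0.0325). Prtg 1438410_at had a larger difference, 0.79 ± 0.17, also without overlap, and missed the threshold (adjusted p = 0.050007). The first call was lost in 5 of 6 fits with 1 array left out and held only without lateral E10.5 replicate 1. The adjusted p was 0.168 without lateral E10.5 replicate 2, the highest of these. Within clusters 1 and 3 it gave 0.37 and 0.83. At E9.7 the medial array was higher than the lateral one on all 3 Prtg probe sets, by 0.59, 0.68 and 0.64, with no test.

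Mycn 1417155_at was lower in medial tissue, at 9.66 to 9.76 on its 3 arrays against 10.14, 10.35 and 10.33, a difference of -0.57 ± 0.11 (n = 3 and 3, limma adjusted p = 0.0286). The call held in 1 of 6 fits with 1 array left out, that without medial E10.5 replicate 1, and its adjusted p was 0.171 without lateral E10.5 replicate 2. Within clusters 1 and 3 it gave -0.45 and -0.68. The other Mycn probe sets gave -0.45 ± 0.19 and -0.44 ± 0.23 (adjusted p = 0.35 and 0.451). At E9.7 the medial array was lower by -0.49 and -0.57 on the first 2 and higher by 0.17 on the third.

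Lin28a 1437752_at was not called between the regions, at -0.67 ± 0.39 (n = 3 and 3, limma adjusted p = 0.52). Medial E10.5 replicate 1 (6.82), an array of low deposited signal, lay above the lateral arrays (6.60, 6.22 and 6.60), and the other medial arrays (5.59 and 5.01) lay below them. Without it the difference was -1.17 and was called (adjusted p = 0.0244), and within cluster 3 it was -1.41, where cluster 1 held the medial value of 5.59 and the lateral value of 6.60. The second Lin28a probe set, 1421749_at, gave -0.08 (95% interval -0.80 to 0.64) and was called with the cluster as a term (-0.45, adjusted p = 0.0298). Trim71 gave 0.07 and 0.21, and no probe set of Hmga2, Igf2bp1 or Igf2bp3 was called, with differences between -0.41 and 0.41. Hmga2 1446196_at, which reached the filter level in medial tissue alone, was called with the cluster as a term (0.76, adjusted p = 0.0115).

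On the values as deposited the median of all probe sets was -1.05 in the regional comparison, and Sall4 1424152_at (-0.18) and Prtg 1456329_at (-0.32) then differed in the other direction, as did Sall4 1424153_s_at (-0.33) and Prtg 1438410_at (-0.27), though all 4 lay above that median. The medial pieces also had more signal of epithelial markers (4 of 6 called, median 0.98), and of endothelial markers (2 of 6, median 0.62), with list means of 8.05 to 8.20 against 7.20 to 7.36 and 7.16 to 7.27 against 6.61 to 6.77. Both tested cartilage markers were lower in medial tissue (median -1.48), as were 1 of 2 glial (median -1.17) and 1 of 8 muscle markers (median -0.46), and 1 of 3 neuronal markers was higher. The part of these cell types in the Sall4, Prtg and Mycn differences was not tested. Between the single E9.7 arrays none of the 26 probe sets counted differed by 2-fold, where 1.38% of all did.

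At E14.5, in the tongue sample, Hmga2 and Igf2bp1 were lower on every probe set. Each single step up to E11.5 had been under 2-fold for both genes. Over both steps together, Igf2bp1 1418761_at had gone from 10.61 at medial E9.7 to a mean of 9.46 at medial E11.5. With 1 array at E14.5 nothing was tested, and a probe set was counted where it lay at least 2-fold beyond both medial E11.5 arrays. That was so for 10 of 21 probe sets lower and 0 higher, against 9.16% and 9.81% of all counted. Among the 10, Sall4 1424152_at (4.71 at E14.5), Prtg 1456329_at (4.64), Trim71 1453599_at (3.83) and Igf2bp3 1453957_a_at (4.39) were counted only through E11.5. They are high at that stage, so their part in the count is a description. Lin28a, Lin28b, the dimmer probe set of Sall4, 1 of Hmga2 and 1 of Prtg were left out of the 21, since neither stage had a mean at the filter level. The median was -1.11 over the 21 and -0.02 over all.

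Hmga2, a chromatin protein that is a much studied let-7 target, was among the genes that were lower here. Probe set 1422851_at stayed between 11.84 and 12.41 on all 10 arrays to E11.5 and read 9.82 at E14.5. Probe set 1450780_s_at went from 11.49 and 11.53 at E11.5 to 9.35, and 1450781_at from 11.37 and 11.59 to 7.64. The 3 differences from E11.5 were -2.41, -2.16 and -3.84, in the same direction on each bright probe set but of unequal size. The fourth, 1446196_at, read between 3.65 and 5.18 to E11.5 and 2.83 at E14.5, too dim for a fold.

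Igf2bp1, which binds and stabilizes growth-related messages, was also lower on every probe set. Probe set 1455223_at read 10.01 and 10.14 at E11.5 and 8.34 at E14.5, 1418761_at read 9.16 and 9.77 and then 7.37, and 1449210_at read 8.84 and 8.16 and then 6.15. Their differences were -1.74, -2.09 and -2.35, and that of 1459825_x_at was -0.48. The suffix x marks probe sets whose probes can also match other transcripts.

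The 6 probe sets of Igf2bp3 parted at E14.5. Probe set 1453957_a_at read between 8.24 and 8.83 on the 10 arrays to E11.5 and 4.39 at E14.5, which is -4.04 from E11.5. The others differed by -1.11 (1422610_s_at), -0.56 (1422611_s_at), -0.16 (1433731_at), -0.06 (1433732_x_at) and 0.23 (1450687_at). In the earlier comparisons the 6 had lain between -0.33 and 0.32 (E9.7 to E10.5), between -0.32 and -0.04 (E10.5 to E11.5) and between -0.27 and 0.06 (medial against lateral). The split at E14.5 rests on 1 array and has no replicate check.

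**Figure D4:**
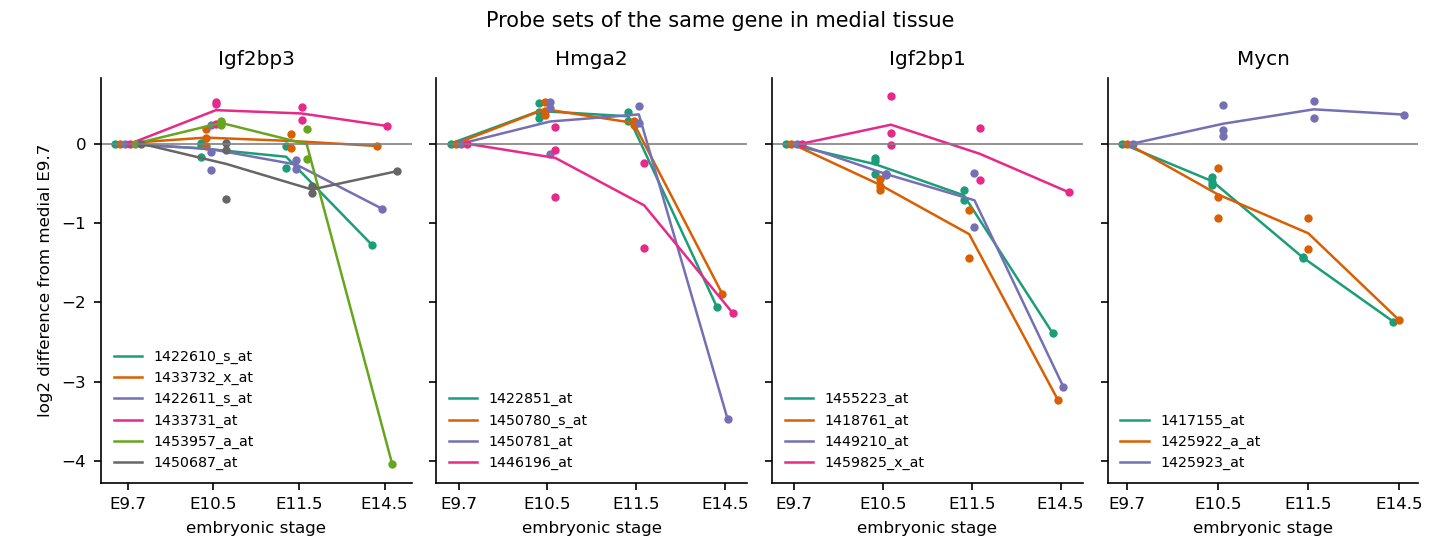
Log2 difference from the medial E9.7 array (y axis) of every probe set of Igf2bp3, Hmga2, Igf2bp1 and Mycn in medial tissue by stage (x axis, evenly spaced). Points are single arrays and lines join means. At E14.5 Igf2bp3 1453957_a_at lies far below the other 5, at a signal of 4.39, and Mycn 1425923_at stays above 0 while the other Mycn probe sets are lower.

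Among the genes that fell earlier, Sall4 1424152_at read 4.71 at E14.5 against 7.46 and 7.38 at E11.5 (-2.72), Prtg 1456329_at 4.64 (-1.82) and Trim71 1453599_at 3.83 (-1.78), all now under the filter level. Lin28a 1437752_at read 2.44, the lowest of its 11 values. Mycn 1417155_at read 7.94, a difference of -0.81, and remained well above the filter level. Beside these values, the mean log2 signal of muscle markers was 11.47 at E14.5 and that of arch mesenchyme markers 8.36. Cell cycle genes averaged 9.96 against 10.73 and 10.79 at E11.5, and red cell markers 7.21 against 9.81 and 10.03. The red cell drop rests mostly on Hbb-bh1 (-7.26) and Hba-x (-4.49), where Hbb-y differed by -1.10 and Alas2 by -0.51. Hba-a1 was under the filter level on every array. By the 2-fold rule, 5 of 6 epithelial (median 1.64), 4 of 5 macrophage and 5 of 8 muscle markers counted were higher. So were 3 of 5 neuronal, 1 of 6 endothelial and 1 of 2 glial ones. Lower were 3 of 4 red cell markers, 1 of 5 arch mesenchyme markers, 1 of 3 cartilage markers and 1 neuronal one. The E14.5 array stood alone in cluster 4, and its 18S ribosomal RNA controls averaged 8.86 on the log2 scale, against 7.51 on medial E11.5 replicate 2 and 9.52 on replicate 1. The part of these in the E14.5 values was not tested.

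Lin28b was not recorded above the filter level on any array. Its only probe set, 1430803_at, read 2.50 and 2.36 at E9.7, between 2.39 and 2.96 at E10.5 and E11.5, and 2.29 at E14.5, so it was not tested. The filter level says nothing of whether the transcript was present.

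By the likeness of their 6 group means to those of Lin28a 1437752_at, after each was centred on its own mean, the nearest of 21498 probe sets of other genes was Prtg 1456329_at (root mean square distance 1.05 log2 units). Trim71 1453599_at (1.30), Prtg 1438333_at (1.33), Igdcc3 1439498_at (1.36) and Prtg 1438410_at (1.43) came next. Trim71 1456673_at ranked 8 and Sall4 1424152_at ranked 9, whereas the bright probe sets of Hmga2, 1422851_at and 1450780_s_at, ranked 3540 and 3190. The second Lin28a probe set lay at 1.52. Distances of this kind grow with the size of a pattern and were computed over 6 groups only. The same search from Lin28b, whose signal was flat and under the filter level, names flat probe sets and is not read here.

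Lists of related genes were chosen with earlier results of these data known and are described by counts. Of 10 genes of let-7 processing and Lin28 partners (Drosha, Dgcr8, Xpo5, Dicer1, Tarbp2, Ago2, Khsrp, Tut4, Tut7 and Dis3l2), limma called none in any of the 3 tested comparisons. At an unadjusted p under 0.05 there was 1 higher (Dicer1, 0.36) and 1 lower (Tarbp2, -0.28) from E9.7 to E10.5, 1 lower (Xpo5, -0.33) from E10.5 to E11.5 and none between regions. Tut4 and Tut7, the uridylyl transferases that act with Lin28 on precursor let-7, gave 0.27 ± 0.14 and 0.20 ± 0.09 from E9.7 to E10.5 (adjusted p = 0.26 and 0.217). On the E14.5 array Dicer1 was 1.56 lower than at E11.5.

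Of 13 other growth genes that let-7 is known to target, or that act with them, 5 fell and none rose from E9.7 to E10.5 (2 had an unadjusted p under 0.05 and were higher). Nr6a1, a nuclear receptor of early embryos, had the lowest difference, -2.18 ± 0.13 (limma adjusted p = 0.000404), followed by Myc (-0.93 ± 0.16, adjusted p = 0.0188), Arid3a (-0.76 ± 0.13, adjusted p = 0.0188) and Arid3b (-0.69 ± 0.11, adjusted p = 0.015). The list median was -0.17. From E10.5 to E11.5 Arid3b alone fell (-1.17 ± 0.13, adjusted p = 0.00113). Between regions Igf2, a fetal growth factor, was alone in being called, higher in medial tissue by 0.80 ± 0.11 (adjusted p = 0.00488).

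Of 12 early embryo and pluripotency genes, 4 were tested. Sox2, which is also expressed in oral epithelium, fell from E9.7 to E10.5 (-0.70 ± 0.11, limma adjusted p = 0.0118) and was higher in medial tissue at E10.5 (0.85 ± 0.13, adjusted p = 0.0102). The DNA methyltransferase gene Dnmt3b fell at both steps, by 0.62 ± 0.10 (adjusted p = 0.0181) and then by 0.60 ± 0.12 (adjusted p = 0.026). Pou5f1, Nanog, Dppa4, Dppa5a, Tdgf1, Zfp42 and Dnmt3l were under the filter level on every array.

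Of 10 tested paralogs of the members, Igdcc3, a relative of Prtg, fell from E9.7 to E10.5 (-0.96 ± 0.18, limma adjusted p = 0.0227) and again from E10.5 to E11.5 (-3.37 ± 0.23, adjusted p = 8.48e-05), while Igdcc4, another relative, rose at both steps (0.82 ± 0.14, adjusted p = 0.0197, and 0.93 ± 0.18, adjusted p = 0.0255). Sall1, a relative of Sall4, fell at both steps as well (-1.10 ± 0.25, adjusted p = 0.042, and -1.61 ± 0.26, adjusted p = 0.00961). Counting Myc, 3 fell and 1 rose at the first step and 2 fell and 1 rose at the second, and limma called none between regions (1 higher and 1 lower at an unadjusted p under 0.05).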

How the data were processed

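RNA of pooled mandibular arch tissue (40 embryos per time point, 3 ug total RNA per the labels) was read on 11 arrays. The deposited values are log2 signals, made by the authors with Affymetrix Expression Console 1.1, per the submitters' processing notes; the summarization algorithm is not given in the sources used here. Deposited arrays differed in median, so the values were quantile-normalized across the 11 arrays. Genes were named from the platform annotation, updated through Entrez IDs against RefSeq: 34958 of 45101 probe sets had 1 symbol, 932 had several, 9211 had none, and 34754 matched RefSeq. Control probe sets (64) were left out.

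Each probe set was fitted with limma 3.58.1 in R 4.3.3: the regional and E11.5 comparisons in 1 fit of 6 groups, and E10.5 against E9.7 in a fit of region and stage on 8 arrays, each with 5 residual degrees of freedom. Probe sets entered with at least 2 of the 8 arrays compared at 4.86 or above, and p-values were adjusted by Benjamini-Hochberg. Without replicates no test was made. The fits were tested on simulated data. Every member probe set was reported. The brightest probe set of each listed gene stood for it, and of each list up to 4 genes of smallest adjusted p in a comparison were named, as were the 5 probe sets nearest to Lin28a. The members, the lists and the rules were chosen with earlier results of these data known. Alternatives covered scaling, filter, probe set choice, fit, array weights, control-probe cluster, threshold and each array left out. The highest correlation between arrays was 0.995, and no pair was identical.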

Additional observations from a re-analysis of the deposited data

Results flagged for a closer look

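Sall4 1424153_s_at was lower in medial than in lateral tissue at E9.7 by a log2 difference of -0.455 (1 array a side) and higher at E10.5 by 0.837 (3 arrays a side, every medial array above every lateral one). The opposite directions of the 2 stages drew attention to it. At E10.5 only its medial arrays reached the filter level, and the lateral ones read 4.50 to 4.85. The lack of overlap there is a description that rests on dim lateral signal. A test of the change between the stages, added after these values were seen, gave 1.29 ± 0.46 with limma (unadjusted p = 0.0210, adjusted p = 0.999969), so the difference did not pass over all probe sets. The brighter Sall4 probe set gave 0.02 and 0.77.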

How the results depend on the processing

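Counts are of probe sets called, then of member probe sets called. They were 721 and 3 between regions, 1048 and 7 from E10.5 to E11.5, and 1277 and 13 from E9.7 to E10.5. On the values as deposited limma called 2 and 0 between regions, 0 and 0 to E11.5 and 1 and 1 to E10.5 (139, 75 and 37 probe sets and 0, 2 and 8 members at an unadjusted p under 0.05). The median of all differences was then -1.05, -0.67 and -0.45. Centring gave 1 member between regions and 648 probe sets to E11.5, and moved the median of all by -0.28 to E10.5. With no filter there was 1 member between regions, and 812 and 8 to E10.5. With 1 probe set per gene 6 members were called to E10.5. With only the groups compared 5 members were called between regions, and 554 probe sets to E11.5. Array weights gave 3154 and 7 between regions and 6278 to E10.5. The control-probe cluster as a term gave 1848 and 6, 3153 and 11, and 2186. Without both arrays of low signal 994 were called between regions, and 901 and 8 to E11.5. The fit to E10.5 holds only medial E10.5 replicate 1 of these arrays, and 2755 were called without it. At an adjusted p under 0.01 the counts were 405 and 1, 525, and 237 and 8.

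Leaving out 1 array gave 395 to 755 and 1 to 3 between regions, 723 to 1100 and 6 to 7 to E11.5, and 127 to 2755 and 7 to 14 to E10.5. Between regions the count moved over 1.5-fold without lateral E10.5 replicate 2 (396) or 3 (395). To E10.5 it did so without medial E9.7 (139), lateral E9.7 (127), medial E10.5 replicate 1 (2755) or 3 (834), or lateral E10.5 replicate 1 (711), 2 (399) or 3 (529). Among called member probe sets directions turned for 4: as deposited for Sall4 1424152_at (-0.183) and Prtg 1456329_at (-0.325) between regions, and to E10.5 for Hmga2 1422851_at (-0.238 as deposited, -0.0240 centred) and 1450780_s_at (-0.267 and -0.0536). Some uncalled ones turned too, such as Trim71 1456673_at (-0.841) between regions and Hmga2 1450781_at (-0.505) to E10.5, as deposited. Except for what follows from fewer probe sets or arrays, the cause was not tested. The replicate numbers as a replicate block gave 922 and 5 between regions and 1069 and 8 to E11.5. Same-numbered arrays deviated with correlations of 0.126, -0.251 and 0.466 between regions and 0.594 and 0.434 to E11.5. The first 3 do not all exceed 0.1, and the others are 2 pairs, of which the first is the arrays of low signal, so the numbers are not taken as a pairing. No paired analysis was possible because the E9.7 arrays carry no replicate numbers, for the step to E10.5. Signal near or under the filter level limits Lin28b and Hmga2 1446196_at throughout, and Lin28a 1421749_at and Prtg 1438333_at from E10.5. It also limits Sall4 1424153_s_at in lateral tissue at E10.5 and in medial tissue at E11.5. Lin28a 1437752_at and Trim71 1456673_at are limited at E11.5. At E14.5 the same holds for every probe set of Lin28a, Sall4, Trim71 and Prtg and for Igf2bp3 1453957_a_at.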
